A study of Homo sapiens with 2 samples.

Results

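The cells described here are labeled the mitotic cells of LNCaP_C4-2B, after the mitotic genes that chose them. They are the top 10% of that line's single-cell RNA-Seq library in a series of 3700 cells. The values below describe them as cells of G2 or mitosis and do not separate the 2. LNCaP_C4-2B is a castration-resistant strain obtained by passage of the human prostate carcinoma line LNCaP through castrated mice. Its parental line, LNCaP_FGC, was the other line sequenced. Both were grown untreated in RPMI1640 with 10% FBS and 1% Pen/Strep, and both share the mismatch repair deficiency of LNCaP. Each line gave 1 library with the same number of cells, and the libraries carry different batch labels, so that a difference between strains cannot be told apart from one between batches. The labels name no synchronization or sorting of cells.

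Members were chosen by 6 genes, PLK1, CCNB1, CDC20, KIF20A, CENPA and CENPE. The UMIs (unique molecular identifiers, each standing for 1 captured transcript) of the 6 genes were summed per cell, scaled to a cell total of 1000000 UMIs (CPM), and the 10% of cells with the highest value were taken as members. The value lay between 1335.7 and 2854.1 CPM (median 1657.8) in members and between 0 and 1335.6 CPM (median 100.3) in the other cells. At the limit, the last member had 20 UMIs of the 6 genes among 14973, and the first cell outside had 42 among 31447. The next-ranked cells, an equal number used for comparison below, held between 889.3 and 1335.6 CPM, and 474 other cells held none. The ranking was continuous and no gap marked the limit, so 10% is a chosen and not a measured share of mitotic cells. The 6 genes are left out of every result below.

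**Figure D1:**
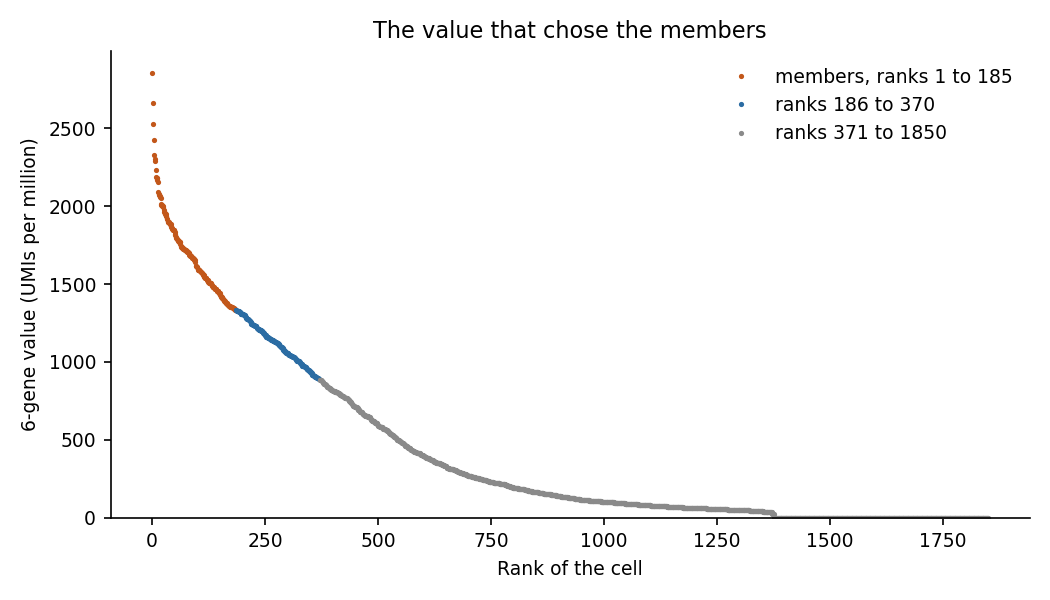
The 6-gene value in CPM (vertical axis) of each LNCaP_C4-2B cell against its rank (horizontal axis), with the members, the next-ranked cells and the remaining cells in 3 colors. The curve passes from 1335.7 to 1335.6 at the limit without a step.

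A cell enters mitosis when CDK1 bound to cyclin B is switched on. Chromosomes then condense, the nuclear envelope breaks down, and microtubules from the centrosomes attach to kinetochores, the protein plates built on centromeres. The spindle checkpoint holds back the anaphase-promoting complex, a ubiquitin ligase, until every chromosome is attached, after which cyclin B and securin are destroyed, sister chromatids part and the cell divides by cytokinesis. Most genes for these steps are transcribed in G2 and mitosis under the MuvB complex with B-MYB and FOXM1. The complex acts through the CHR promoter element, and the CCAAT box is also known in promoters of such genes. Histone mRNA made for DNA replication, in contrast, is degraded at the end of S phase.

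Values are pooled over cells. UMIs of a gene were summed over a group of cells and scaled to CPM, and a fold is the ratio of pooled CPM in members over that in the other cells, with an exact 95% interval that covers counting error only. Cells of 1 library are not replicates and the members were chosen by transcript levels of the same cells, so no significance test was possible and no p-value is given. Over the 10944 genes with at least 100 UMIs in the library, the log2 ratio of the median gene was 0.08. Genes whose ratio exceeded the median gene's by 1.5-fold or more were called higher, and those as far below it were called lower. By this rule 557 genes were higher in members (5.09% of those measured) and 703 were lower (6.42%). Without setting ratios against the median gene, 786 were higher and 558 lower. Log2 values below are relative to the median gene, and folds and CPM are not.

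The 8 lists of mitosis genes, from entry to cytokinesis, had 152 of 153 genes measured. Of these, 86 (56.6%) were higher in members, 2 (1.32%) were lower and 64 were within 1.5-fold, with a median log2 ratio of 0.78, against 5.09% higher and 6.42% lower over all genes. The 2 lower ones were CDC25A (log2 ratio -0.71), a phosphatase that acts mainly at entry to S phase, and FBXO5 (-0.76), the inhibitor of the anaphase-promoting complex known as EMI1. Both rest on few transcripts, 4.25 against 6.55 CPM for CDC25A and 13.6 against 21.7 CPM for FBXO5, and with CCNB1 out of the rule the log2 ratio of FBXO5 was 0.0080. Of the 156 genes at least 2-fold higher than the median gene, 64 were on these 8 lists and 85 were on no list. Since the members were picked by 6 genes of the same program, these counts describe the cells and are not support for the label.

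Per cell, the summed level of the 8 lists was 10296 CPM in the lowest member, 18622 at the median and 40822 in the highest. In the other cells the lowest, median and highest were 1840, 7259 and 24197 CPM. Every member thus stood above the median of the other cells and 14 members stood above their highest, while 109 members exceeded the other cells' percentile 95. Members and other cells overlapped over a wide range.

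At levels of 50 CPM or more, the highest ratio belonged to AURKA (chromosome 20, 56369389 to 56392337 on GRCh38), which encodes the Aurora A kinase of centrosome maturation and spindle assembly. It stood at 346 CPM in members and 65.0 CPM in other cells, a 5.33-fold difference (95% interval 4.96 to 5.72). FAM72B, a gene with near-identical copies between which reads may be split, had a like ratio at a lower level, 24.4 against 4.52 CPM (5.39-fold, 4.07 to 7.09). Per cell, AURKA was at 0 in the lowest member, 329.7 CPM at the median and 1011 CPM in the highest, while the median of the other cells was 0 and their highest 909 CPM. With each cell thinned to 11901 UMIs, 95.2% of 166 members (90.7 to 97.9) had an AURKA UMI, against 32.7% of other cells. In the cells with none of the 6 genes the share was 10.2%, and what part of it free RNA makes up was not tested.

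After AURKA, the 11 highest ratios among genes with at least 50 CPM ran from 4.70-fold to 4.03-fold. ASPM, a spindle-pole protein (4.70-fold, 4.24 to 5.20), and KIF2C, a kinesin that strips tubulin from microtubule ends (4.64-fold, 4.15 to 5.18), came next. KIF14, a kinesin of the midbody, and SGO2, which shields centromeric cohesin, were 4.53-fold and 4.46-fold higher. FAM83D (4.34-fold), the kinase NEK2 (4.32-fold), the checkpoint kinase BUB1 (4.32-fold), the spindle protein HMMR (4.21-fold), CENPF (4.14-fold), DLGAP5 (4.09-fold) and DEPDC1 (4.03-fold) completed the 12. All of these genes except DEPDC1 were on the mitosis lists.

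The promoters of 4 of these 12 genes are printed, because the known element of G2 and mitosis promoters can be read in them. They were taken for a high ratio and a match to the CHR letters. That they hold these letters was thus fixed by the choice, and they do not stand for the other genes of the 12. The sequences are from RefSeq on GRCh38.p14, 150 bases that span each start site's upstream side, written 5′ to 3′ on the gene's strand. Capitals mark the CHR letters (TTTGAA or TTCGAA, either strand, so also TTCAAA) and the CCAAT letters (either strand, so also ATTGG). They are ASPM at chr1:197146670-197146819 (minus strand), HMMR at chr5:163460482-163460631 (plus strand), DLGAP5 at chr14:55191586-55191735 (minus strand) and DEPDC1 at chr1:68497083-68497232 (minus strand).
ASPM: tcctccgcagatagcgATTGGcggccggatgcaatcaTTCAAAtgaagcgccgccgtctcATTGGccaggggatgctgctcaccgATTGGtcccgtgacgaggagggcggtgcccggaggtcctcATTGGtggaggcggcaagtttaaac
HMMR: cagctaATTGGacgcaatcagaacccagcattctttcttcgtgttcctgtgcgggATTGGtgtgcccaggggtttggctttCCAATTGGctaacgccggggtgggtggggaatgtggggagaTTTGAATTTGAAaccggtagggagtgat
DLGAP5: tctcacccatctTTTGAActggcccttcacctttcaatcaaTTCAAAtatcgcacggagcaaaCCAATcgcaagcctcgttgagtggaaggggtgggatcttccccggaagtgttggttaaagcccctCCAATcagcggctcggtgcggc
DEPDC1: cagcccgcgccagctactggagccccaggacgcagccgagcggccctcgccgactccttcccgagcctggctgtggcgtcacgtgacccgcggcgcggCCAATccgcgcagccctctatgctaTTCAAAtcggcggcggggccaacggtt

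The CHR letters began 113 bases before the start in ASPM, 28 and 22 bases before it in HMMR, 138 and 109 in DLGAP5 and 27 in DEPDC1. In HMMR a CCAAT and an ATTGG overlap. Over windows from 250 bases before to 50 after the start, the CHR letters were present in 67 of the 132 promoters (50.8%) that could be matched among the 156 genes at least 2-fold higher in members. They were present in 10.6% of the 8777 measured genes with a promoter in the table, in 16.6% of all 27305 promoters and in 11.2% of the promoters of genes at least 2-fold lower. CCAAT was present in 65.2% of the higher genes, 38.1% of measured genes and 35.7% of all promoters. Both were present in 40.9%, 4.76% and 6.58%. A match says that the letters are there, not that a factor is bound.

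Of the kinases, cyclins and regulators of mitotic entry, 13 of 21 measured genes were higher and 1 was lower, with a median log2 ratio of 1.04. Cyclin A (CCNA2), the partner of CDK2 in S phase and of CDK1 in G2, stood at 120 CPM against 31.0 CPM (3.89-fold, 3.46 to 4.36). CCNB2, the second B-type cyclin, stood at 214 against 65.6 CPM (3.26-fold, 3.0 to 3.55). CKS2, a small subunit of CDK complexes, was the most abundant of the 3, at 787 against 205 CPM (3.84-fold, 3.68 to 4.02). CDC25B, the phosphatase that starts CDK1 activation, was 3.48-fold higher (2.86 to 4.22).

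CDK1 itself (chromosome 10, 60778331 to 60794852) differed less than its cyclins and stayed within 1.5-fold of the median gene. It stood at 223 CPM in members and 142 CPM in other cells (1.57-fold, 1.45 to 1.69). Per cell, members ran from 0 to 1052 CPM with a median of 74.9, and other cells from 0 to 1530 CPM with a median of 56.4. At equal depth 62.7% of members and 51.5% of other cells had a CDK1 UMI, beside 34.8% of the cells with none of the 6 genes. MYBL2, the B-MYB subunit of the MuvB complex, stood at 72.2 against 66.9 CPM (1.08-fold, 0.945 to 1.23), and FOXM1 was 1.76-fold higher (1.54 to 2.02).

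Chromosome condensation and cohesion genes were higher in 15 of 26 cases and lower in none, with a median log2 ratio of 0.76. TOP2A, the topoisomerase that untangles sister chromatids, stood at 295 against 87.4 CPM (3.38-fold, 3.14 to 3.63). MKI67, the coat protein of mitotic chromosomes known as Ki-67, stood at 340 against 119 CPM (2.85-fold, 2.67 to 3.04), and the condensin subunit SMC4 at 284 against 121 CPM. PTTG1, which encodes securin, was 2.21-fold higher (2.09 to 2.34). Of the cohesin subunits, RAD21 was 1.93-fold higher, while SMC1A stood at 1.39-fold, SMC3 at 1.23-fold and STAG2 at 98.6 against 106 CPM (0.930-fold, 0.830 to 1.04).

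At the centromere and kinetochore, 16 of 34 genes were higher and none lower, with a median of 0.57. CENPF (chromosome 1, 214603185 to 214664574), a large protein of the outer kinetochore, was the most abundant of them, at 1132 against 273.5 CPM (4.14-fold, 3.99 to 4.30). Per cell it ran from 182 CPM in the lowest member through 982 at the median to 3080 in the highest, and from 0 through 106 to 2085 CPM in the other cells. NDC80 (3.63-fold, 3.27 to 4.03) and KNSTRN (3.78-fold, 3.39 to 4.20) were also higher, and the low end of the list held CENPN at 435 against 453 CPM (0.958-fold, 0.909 to 1.01) and PMF1 (1.02-fold, 0.848 to 1.21).

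In the spindle checkpoint, 5 of 11 genes were higher and none lower, with a median of 0.48. The higher genes were BUB1 at 99.1 against 23.0 CPM, TTK, the kinase known as MPS1, at 67.1 against 16.8 CPM (4.0-fold, 3.42 to 4.67), BUB1B (3.83-fold, 3.46 to 4.24), BUB3 (2.12-fold) and MAD2L1 (1.81-fold). KNTC1 and ZWILCH, of the complex that brings dynein to kinetochores, stood at 1.04-fold (0.807 to 1.33) and 1.24-fold (1.02 to 1.49).

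Of the anaphase-promoting complex with its ubiquitin enzymes, 3 of 18 genes were higher and 1 was lower, with a median of 0.08. UBE2C, the E2 that starts ubiquitin chains, stood at 170 against 44.8 CPM (3.79-fold, 3.44 to 4.17), and UBE2S, which lengthens them, at 1110 against 531 CPM (2.09-fold, 2.02 to 2.16). Of the subunits CDC27 was 2.02-fold higher (1.76 to 2.31), while ANAPC5 stood at 194 against 195 CPM (0.991-fold, 0.915 to 1.07).

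All 4 genes of the chromosomal passenger complex, which corrects faulty attachments and later sits at the midzone, were higher, with a median of 1.47. CDCA8 (borealin) stood at 127 against 33.0 CPM (3.84-fold, 3.43 to 4.30) and INCENP at 80.4 against 21 CPM (3.83-fold, 3.32 to 4.41). Survivin (BIRC5) and the kinase AURKB had smaller ratios, 2.26-fold (2.12 to 2.40) and 2.12-fold (1.84 to 2.42), and against other G2M cells alone the log2 ratio of AURKB was -0.064.

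Spindle motors and microtubule regulators held the highest share of higher genes after that complex, with 20 of 24 genes higher and none lower (median 1.41). GAS2L3 (5.28-fold, 4.35 to 6.38) and the kinesin KIF18A (4.96-fold, 3.95 to 6.21) were low in level, at 49.6 and 34.8 CPM in members. TPX2, the activator of Aurora A on the spindle, stood at 522 against 130 CPM, and HMMR at 478 against 113 CPM. KIF11, the kinesin that pushes the spindle poles apart, was 2.94-fold higher (2.60 to 3.32). NUMA1 and KIF2A, which are also expressed outside mitosis, stood at 1.23-fold and 1.39-fold.

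Among cytokinesis genes, 10 of 14 were higher and none lower, with a median of 1.51. PRC1, which bundles midzone microtubules, stood at 355 against 112 CPM (3.16-fold, 2.96 to 3.38). KIF23 (3.79-fold, 3.30 to 4.34) and RACGAP1 (3.52-fold, 3.11 to 3.98), which together form centralspindlin, and CEP55, which recruits the abscission machinery (3.52-fold, 3.20 to 3.87), had like ratios. Genes with general roles in the cell cortex and membranes did not, with RHOA at 1.17-fold (1.08 to 1.26) and CHMP4B at 1.09-fold (0.909 to 1.29).

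**Figure D2:**
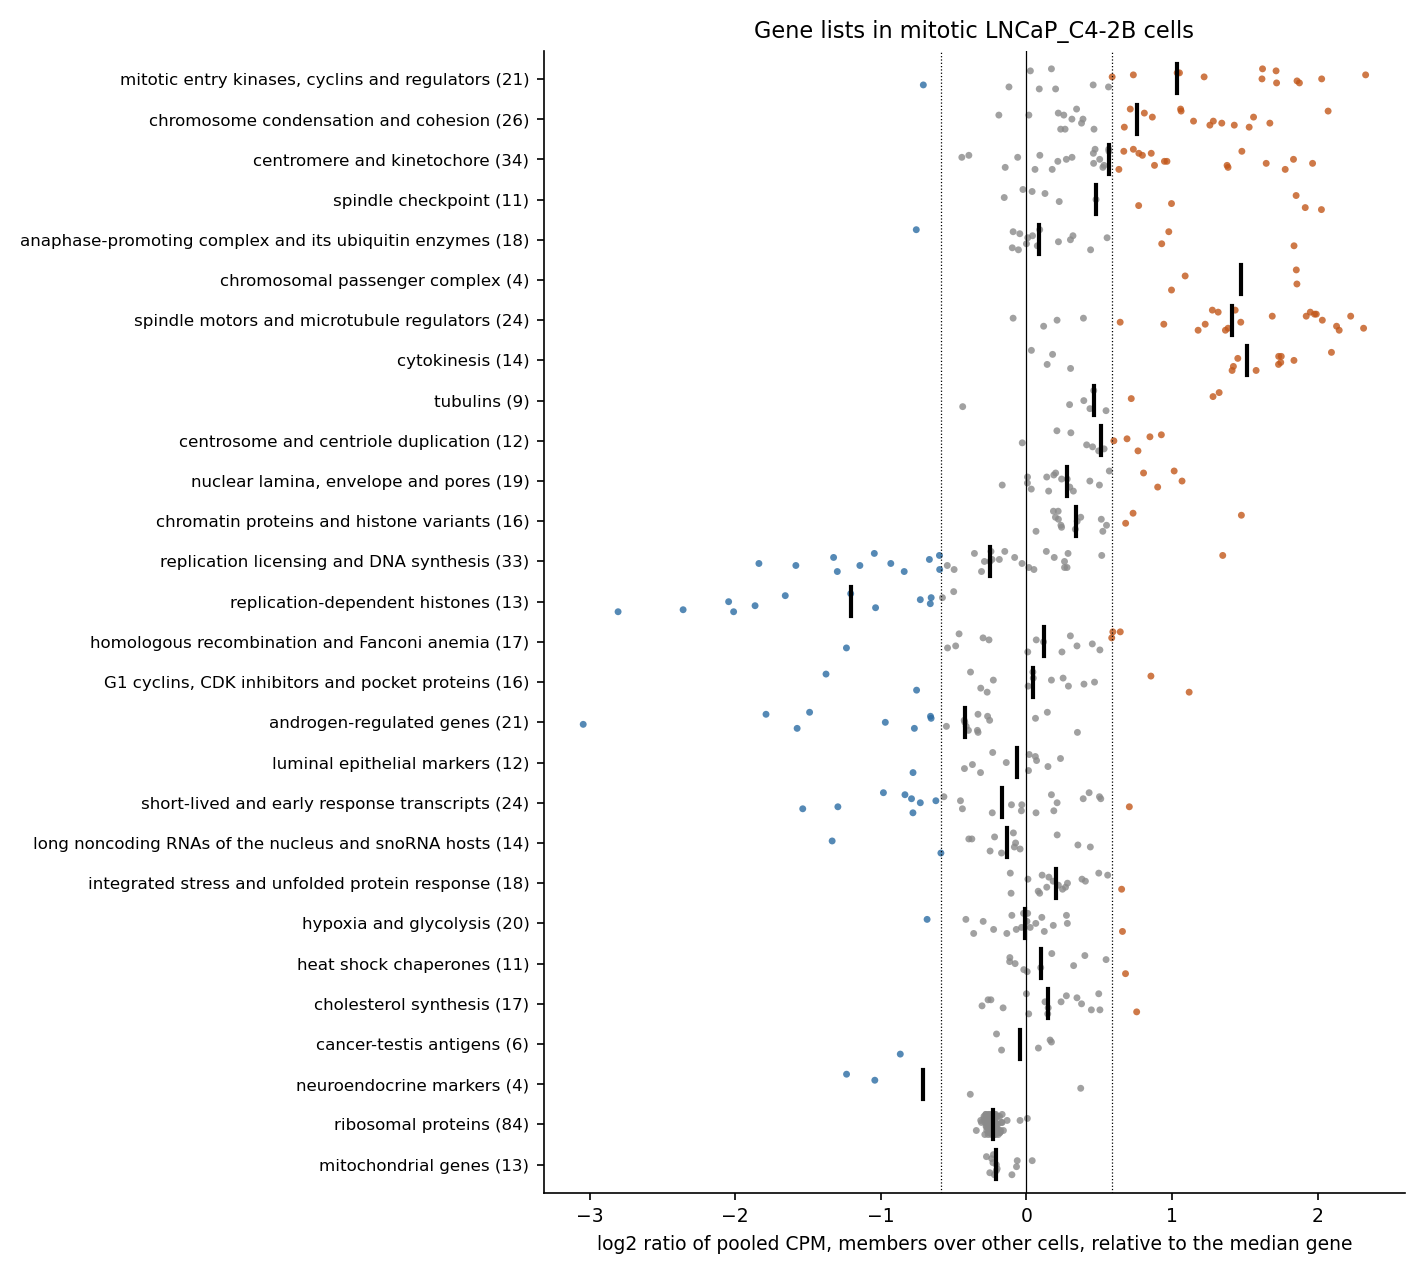
Each point is 1 gene, placed by its log2 ratio of pooled CPM in members over other cells relative to the median gene (horizontal axis), in the list named on the vertical axis with its number of measured genes. Orange and blue points lie at least 1.5-fold higher and lower (dotted lines), grey points lie between, and black bars are list medians, highest for cytokinesis at 1.51 and lowest for replication-dependent histones at -1.21.

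Of 9 measured tubulins 3 were higher, with a median of 0.46, led by TUBB4B at 823 against 310 CPM (2.65-fold, 2.54 to 2.77) and TUBA1C at 472 against 183 CPM (2.58-fold, 2.44 to 2.72), with TUBB2A at 1.75-fold. Of 12 centrosome genes 5 were higher (median 0.51), STIL, needed for centriole duplication (2.02-fold, 1.56 to 2.57), CENPJ (1.91-fold), CDK5RAP2 (1.80-fold), CEP192 (1.71-fold) and the duplication kinase PLK4 (1.61-fold). Of 19 genes of the nuclear lamina, envelope and pores 4 were higher (median 0.28), with lamin B1 (LMNB1) at 153 against 68.8 CPM (2.22-fold, 2.02 to 2.44) and the lamin B receptor LBR at 208 against 96.9 CPM (2.14-fold, 1.97 to 2.32), beside RANGAP1 (1.98-fold) and TMPO (1.85-fold). Of 16 chromatin proteins and histone variants 3 were higher (median 0.34). HMGB2, a DNA-bending protein, stood at 700 against 237 CPM (2.95-fold, 2.82 to 3.09), HMGB3 was 1.70-fold higher and H2AFX 1.76-fold, though against other G2M cells alone the log2 ratio of H2AFX was -0.091.

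A further 25 genes on no list with at least 50 CPM were at least 2-fold higher than the median gene. The ones named here were chosen after their values were seen. CDCA2, which brings a phosphatase to chromosomes at anaphase, was 3.67-fold higher (3.24 to 4.16), and KPNA2, an importin that binds spindle factors, stood at 280 against 79.4 CPM (3.53-fold, 3.27 to 3.80). SPDL1 (spindly), which links dynein to kinetochores, was 3.46-fold higher (3.06 to 3.90), PRR11 3.37-fold, GPSM2, which orients the spindle, 3.33-fold, the ubiquitin ligase G2E3 3.23-fold and CDCA3 3.01-fold.

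Replication-dependent histone genes were the lowest list. Of 13 measured, 11 were lower and none higher, with a median log2 ratio of -1.21, and their summed level was 882 CPM in members and 2419 CPM in other cells. The linker histone gene HIST1H1B stood at 29.5 against 194 CPM (6.59-fold lower, 5.43 to 8.08), HIST2H2AC at 19.3 against 73.2 CPM (3.80-fold lower, 2.99 to 4.91) and HIST1H1E at 47.3 against 162 CPM (3.43-fold lower, 2.94 to 4.03). HIST1H4C, the most abundant, stood at 542 against 1610 CPM (2.97-fold lower, 2.84 to 3.11). Per cell, however, HIST1H4C had a median of 446 CPM in members and 548 CPM in other cells, with the highest at 3138 and 8218 CPM, so the medians lay closer together than the pooled levels. Most histone mRNAs lack the poly(A) tail that the 3′ assay primes on, so these levels are of the captured part only.

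Genes of replication licensing and DNA synthesis were lower in 11 of 33 cases and higher in 1, with a median of -0.25. The lower ones included UHRF1 (3.37-fold lower, 1.86 to 6.82), CCNE2 (2.83-fold lower, 1.79 to 4.74), the helicase subunit MCM6 at 9.06 against 21.0 CPM (2.32-fold lower, 1.63 to 3.42) and MCM10 (1.95-fold lower, 1.48 to 2.61). PCNA, the sliding clamp, stood at 55.5 against 61.7 CPM (0.900-fold, 0.773 to 1.04). The 1 higher gene was DBF4, the activator of the CDC7 kinase, at 240 against 89.0 CPM (2.70-fold, 2.50 to 2.92). The summed level of the list was a little higher in members, 1525 against 1448 CPM, so the sum and the median of the list differ in sign.

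Homologous recombination and Fanconi anemia genes had 3 of 17 higher and 1 lower (median 0.12). BRCA2 (1.60-fold, 1.41 to 1.81), RAD51AP1 (1.66-fold) and the helicase gene BLM (1.59-fold) were higher, and the nuclease gene EXO1 was 2.22-fold lower on 10 UMIs in members. BRCA1 stood 1.32-fold lower (1.12 to 1.57), short of the 1.5-fold rule, and against other G2M cells alone the log2 ratio of RAD51AP1 was -0.016. Of 16 G1 cyclins, CDK inhibitors and pocket proteins, 2 were higher and 2 lower (median 0.05). CDKN3, a phosphatase of CDK complexes, stood at 327 against 142 CPM (2.30-fold, 2.15 to 2.45), and CDKN2C, an inhibitor of CDK4 and CDK6, was 1.92-fold higher. CDKN1A, the p21 inhibitor, stood at 8.21 against 20.1 CPM (2.45-fold lower, 1.69 to 3.69), and CDKN1C, the p57 inhibitor, was 1.59-fold lower. Cyclin D1 (CCND1) stood at 279 against 317 CPM (0.879-fold, 0.823 to 0.939).

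Androgen-regulated genes were lower in 8 of 21 cases and higher in none, with a median of -0.42, against 6.42% of all genes lower. The lower genes included the transcription factor MAF, with 12 UMIs in all members (3.40 against 26.4 CPM, 7.78-fold lower, 4.43 to 15.1), the transporter SLC45A3 (3.26-fold lower, 2.13 to 5.24) and PMEPA1, a regulator of TGF-β signaling, at 53.8 against 151 CPM (2.81-fold lower, 2.43 to 3.27). The protease gene TMPRSS2 (chromosome 21, 41464300 to 41531116) stood at 83.3 against 154 CPM (1.85-fold lower, 1.64 to 2.08). Per cell TMPRSS2 ran from 0 to 505 CPM with a median of 53.9 in members and from 0 to 921 CPM with a median of 113 in other cells, and 48.8% of members against 70.1% of other cells had a UMI at equal depth.

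The kallikreins differed less than these. KLK3, which encodes prostate-specific antigen, stood at 2364 against 2816 CPM (1.19-fold lower, 1.16 to 1.22) and KLK2 at 614 against 776 CPM (1.26-fold lower, 1.21 to 1.32), both within 1.5-fold of the median gene. Of the 12 measured luminal epithelial markers none was higher and 1 was lower, with a median log2 ratio of -0.06. Among them CDH1, which encodes E-cadherin, stood at 147 against 118 CPM, short of the 1.5-fold rule.

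Short-lived and early response transcripts were lower in 8 of 24 cases and higher in 1, with a median of -0.17. JUN stood at 18.1 against 33.8 CPM (1.86-fold lower, 1.45 to 2.44) and GADD45A at 13.9 against 23.3 CPM, while the 1 higher gene, IER5, rests on 17 UMIs in members (1.73-fold, 0.965 to 2.93). Of 14 nuclear noncoding RNAs and snoRNA hosts 2 were lower (median -0.13), EPB41L4A-AS1 (1.42-fold) and NEAT1. NEAT1 (chromosome 11, 65422774 to 65445540), the RNA that builds nuclear paraspeckles, stood at 775 against 1843 CPM (2.38-fold lower, 2.29 to 2.47). MALAT1 (chromosome 11, 65497640 to 65508073), the neighboring RNA of nuclear speckles, did not share this difference, at 14291 against 14343 CPM (0.996-fold, 0.987 to 1.01). Other genes among the 12 lowest were the potassium channel gene KCNN2 (3.22-fold lower), the protease gene ADAMTS1 (3.12-fold lower), the metallothionein gene MT1X (2.32-fold lower) and the stress cytokine gene GDF15, at 393 against 768 CPM (1.96-fold lower, 1.85 to 2.07). For MT1X the pooled ratio was not shared by the median cell: per cell the median was 51.6 CPM in members and 53.9 CPM in other cells, the highest were 895 and 18380 CPM, and at equal depth 50.6% and 51.5% had a UMI.

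The following lists differed little by median. Of 18 genes of the integrated stress and unfolded protein response 1 was higher (TRIB3, 1.67-fold), of 11 heat shock chaperones 1 (BAG3, 1.70-fold), of 17 cholesterol synthesis genes 1 (INSIG1, 1.79-fold), and of 20 hypoxia and glycolysis genes 1 (VEGFA, 1.67-fold) with 1 lower (ALDOC, 1.51-fold lower, with a log2 ratio of 0.10 against other G2M cells alone). The medians of these 4 lists lay between -0.01 and 0.20. Summed levels were 4377 against 3593 CPM for the stress and unfolded protein response and 1464 against 1131 CPM for cholesterol synthesis. They were 10145 against 9343 CPM for heat shock chaperones and 11704 against 11901 CPM for hypoxia and glycolysis. Of 6 measured cancer-testis antigen genes 1 was lower (CTAG2, 1.72-fold, on 15 UMIs in members), with a median of -0.04. None of 84 ribosomal protein genes and none of 13 mitochondrial genes passed 1.5-fold, and their medians were -0.23 and -0.21. The median ratio also moved with genomic span: over 4 groups of genes of about equal number, from the shortest span to the longest, it was -0.08, 0.004, 0.04 and 0.04, and the part of span in the results above was not tested.

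Members and other cells had near-equal median UMIs per cell in these thinned data. Members held a median of 17483 UMIs, between 10068 and 38725, and the other cells 17585. By the phase score given below, the medians of other cells were 15813 UMIs in G1, 20875 in S and 19500 in G2M. The members' median thus lay above that of G1 cells and below those of S and other G2M cells. The 6-gene value is scaled by a cell's UMIs, so membership is not independent of them. The members' median was 19912 with CCNB1 out of the rule and 19144 when the highest sums after thinning were taken. The spread differed in shape: 23.2% of members (17.4 to 30.0) and 32.2% of other cells lay between 17000 and 23000 UMIs, while 28.6% (22.3 to 35.7) and 21.9% lay at or over 23000, bounds that were chosen after the distribution was seen. Above the library's percentile 90 of UMIs stood 10.8% of members (6.73 to 16.2) and 9.91% of other cells. The study removed cells by a doublet score and no further caller was run. Mitochondrial transcripts took 7.67% of members' UMIs against 8.43%, and ribosomal protein transcripts 25.6% against 28.5%. At equal depth members had a median of 3489.5 genes and other cells 3316.

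A phase score from 43 S and 51 G2M genes, without the 6 genes, placed 182 members in G2M (98.4%, 95.3 to 99.7), 2 in G1 and 1 in S. The next-ranked cells were in G2M in 172 cases (92.97%) and the remaining 1480 cells in 196 (13.2%). The score does not separate G2 from mitosis, and its genes overlap the lists above, so it describes the members as cells of G2 or mitosis and not as mitotic alone. Markers of other cell types were near 0: their summed level in members was 5.38 CPM for 10 fibroblast genes, 1.98 for 10 immune genes, 1.13 for 9 endothelial and erythroid genes and 0.283 for 5 basal epithelial genes, against 4.52, 2.21, 1.77 and 0.664 CPM in other cells. Of these, PTPRC, PECAM1, KRT5 and TP63 were at 0 UMIs in members, where 3 UMIs correspond to 0.850 CPM. Of 10 neuroendocrine genes 5 were at 0 in members, CHGA among them, and the sum was 63.2 against 82.7 CPM. Only 4 of the 10 reached the minimum count, with a median log2 ratio of -0.71. Of these 4, ENO2 and SYT4 were lower (1.94-fold and 2.22-fold, on 13 and 18 UMIs in members).

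Along the ranking, mitotic gene levels declined without a step at the limit. Spindle motors summed to 4395 CPM in ranks 1 to 37, 4136 in ranks 38 to 74, 3422, 3712 and 3306 in the following groups of 37, and 2952 CPM in the next-ranked cells. They then stood at 1300 CPM in the remaining cells with a UMI of the 6 genes and at 450 CPM in the cells with none. AURKA went from 398 CPM in the first 37 cells to 299 CPM in the last 37 members, 239 CPM in the next-ranked cells, 52.8 CPM and 10.3 CPM. The 8 mitosis lists together were 1.33 times as high in ranks 1 to 37 as in the next-ranked cells.

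Other transcripts followed their own course along the same ranking. MALAT1 was at 17538 and 17036 CPM in the first 74 cells, 10558 CPM in the last group of 37 members, 10748 CPM in the next-ranked cells, and 20092 CPM in the cells with none of the 6 genes, so its lowest levels lay around the limit and the near-equal pooled levels of members and other cells average over this course. CDK1 showed no steady decline among members, at 237, 325, 150, 194 and 213 CPM in the 5 groups, and 209 CPM in the next-ranked cells. Replication-dependent histones stood between 766 and 1066 CPM in the 5 groups, at 1225 CPM in the next-ranked cells, at 3076 CPM in the remaining cells with a UMI and at 1233 CPM in those with none. TMPRSS2 was between 60.5 and 108 CPM in members, 72.7 CPM in the next-ranked cells and 229 CPM in cells with none of the 6 genes.

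**Figure D3:**
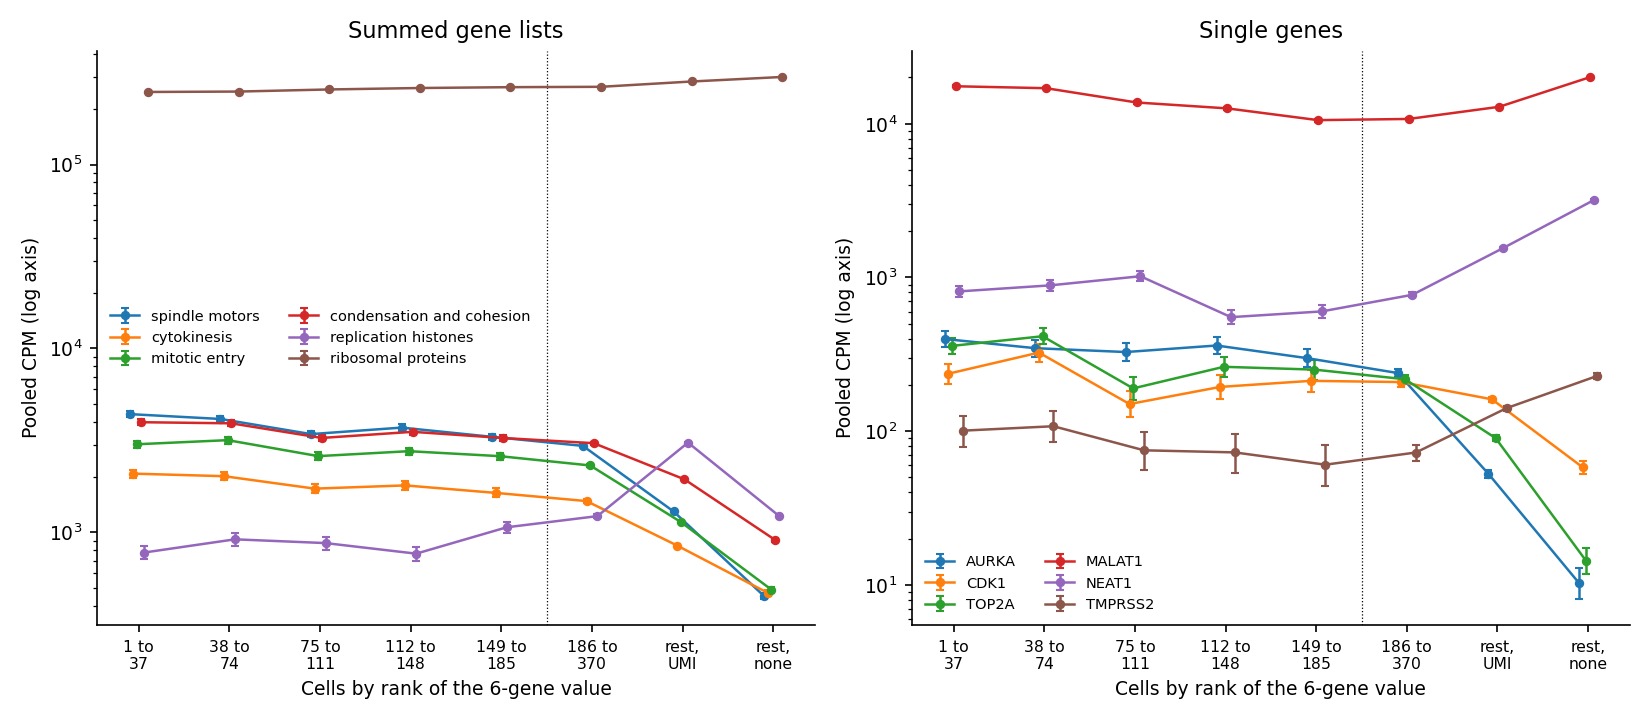
Pooled CPM on a log axis of summed gene lists (left) and single genes (right) in 5 groups of 37 members by rank of the 6-gene value, the next-ranked cells, the remaining cells with a UMI of the 6 genes and those with none. Bars are exact 95% counting intervals and the dotted line is the limit of membership. Spindle motors pass from 4395 to 450 CPM from left to right, while MALAT1 is lowest around the limit.

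Against the next-ranked cells, the most alike ones, members differed in few genes. Of 6799 genes with at least 100 UMIs over both groups, 67 were higher (0.985%) and 36 lower (0.529%) by the same 1.5-fold rule. Medians of the 8 mitosis lists, which had between 4 and 30 measured genes here, lay between -0.01 and 0.38. In each of 6 of these lists 1 gene was higher, and in the anaphase-promoting complex list 1 of 15 was lower. The 5 highest ratios among genes with at least 50 CPM were VEGFA at 147 against 80.9 CPM (1.82-fold, 1.58 to 2.10), INCENP (1.82-fold, 1.5 to 2.21), the calcium-binding protein gene S100P (1.80-fold, 1.49 to 2.18), the chromatin remodeler CHD6 (1.63-fold) and MLPH (1.60-fold). HIST1H4C stood at 542 against 854 CPM (1.58-fold lower, 1.49 to 1.67), and several genes under 50 CPM had lower ratios. AURKA was 1.45-fold higher (1.33 to 1.58), KIF23 1.57-fold (1.31 to 1.89), CDK1 1.07-fold (0.968 to 1.18) and MALAT1 1.33-fold (1.31 to 1.35).

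Among themselves, members with few and with many UMIs differed most in CDK1. Members were split at their median of 17483 UMIs into 92 and 93 cells, whose 6-gene values had near-equal medians, 1654.9 and 1665.8. Of 4458 genes with at least 100 UMIs, 37 were higher (0.830%) and 105 lower (2.36%) in the members with few UMIs. CDK1 stood at 82.4 CPM in these (106 UMIs) and at 304 CPM in those with many (682 UMIs), 3.69-fold lower with few (3.0 to 4.57). With each cell thinned to 11901 UMIs, 41.1% of 73 members with few UMIs (29.7 to 53.2) and 79.6% of 93 with many (69.9 to 87.2) had a CDK1 UMI, so the difference was also present at equal depth.

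Other mitotic genes, some of them named after their values were seen, spanned a range of ratios. CCNF (25.7 against 57.9 CPM), SGO1, the protector of centromeric cohesin (37.3 against 83.3 CPM), FAM83D (49.8 against 107 CPM), TOP2A (172 against 366 CPM), UBE2C (102 against 209 CPM) and MKI67 (228 against 404 CPM) were all lower in members with few UMIs, between 1.77-fold and 2.26-fold. CCNB2 stood at 213 against 214 CPM (0.994-fold, 0.854 to 1.16), BUB1 at 108 against 94.03 CPM (1.15-fold, 0.921 to 1.43) and PTTG1 at 466 against 424 CPM (1.10-fold, 0.989 to 1.22). Between these lay KIF11 (0.683-fold, 0.536 to 0.865), AURKB (0.694-fold, 0.523 to 0.913), CCNA2 (0.812-fold, 0.657 to 1.00), KIF23 (0.851-fold, 0.662 to 1.09) and AURKA at 303 against 371 CPM (0.818-fold, 0.723 to 0.923). The 5 genes highest with few UMIs were AL118516.1 (3.0-fold), TSPYL2 (2.12-fold), ZNF622, JDP2 and THUMPD3-AS1.

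The same split was seen outside the members. Other cells placed in G2M had 110 CPM of CDK1 in the 146 cells under 17483 UMIs and 279 CPM in the 222 cells at or over it. Other cells placed in S had 260 CPM and those in G1 had 32.0 CPM. The members with few UMIs thus stood between the G1 cells and the S cells in CDK1, while their AURKA of 303 CPM was far above the 36.0 CPM of S cells and the 13.0 CPM of G1 cells. UMIs per cell and CDK1 level move together here, and what sets them apart was not tested.

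**Figure D4:**
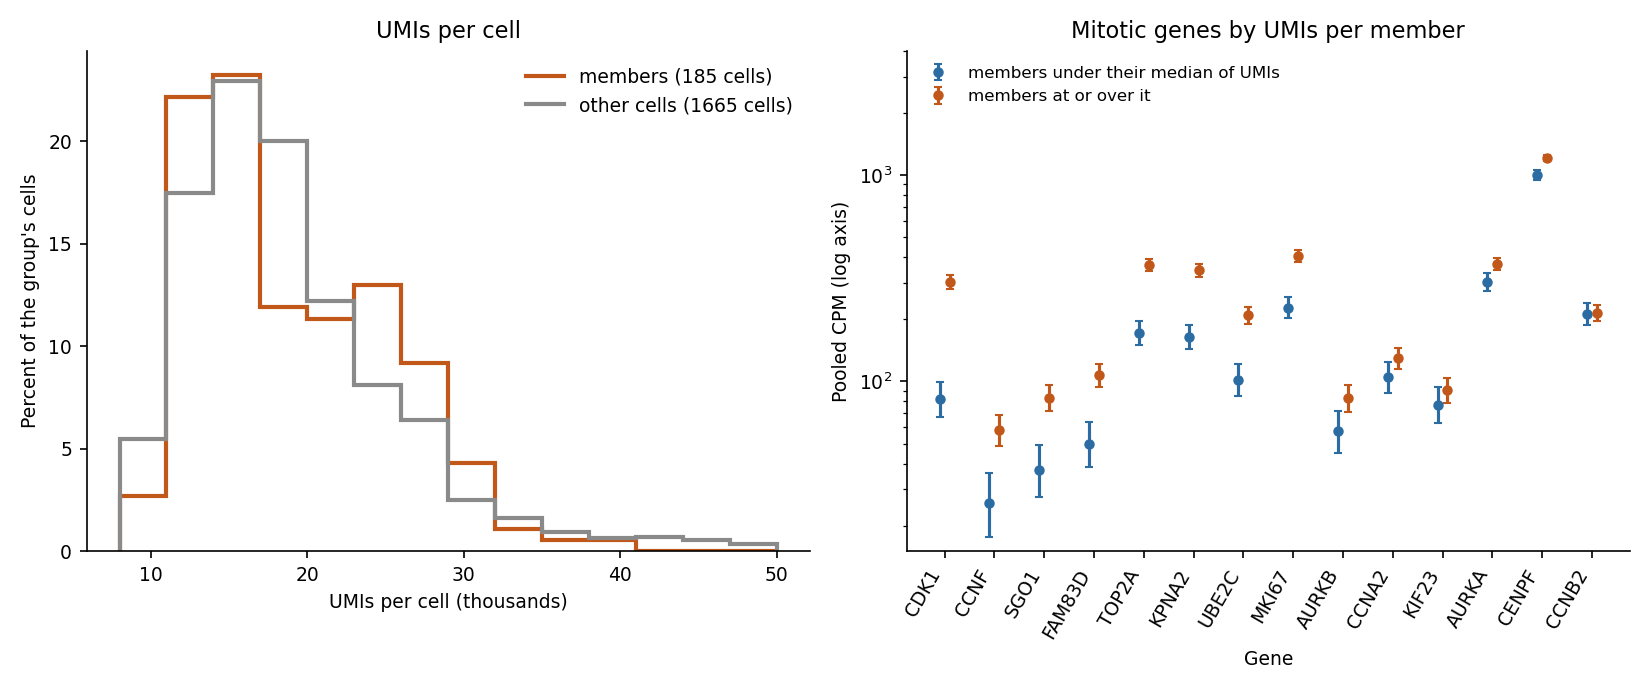
Left, the percent of cells (vertical axis) by UMIs per cell, in steps marked on the horizontal axis, in members and other cells. Right, pooled CPM on a log axis of 14 mitotic genes in the 92 members under their median of UMIs and the 93 at or over it, with exact 95% counting intervals, from CDK1 at 82.4 against 304 CPM to CCNB2 at 213 against 214 CPM.

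The same rule in LNCaP_FGC took the same number of cells, of which 184 were in G2M. Their 6-gene value lay between 1534 and 4019.1 CPM (median 2026), higher than the 1335.7 to 2854.1 CPM (median 1657.8) of LNCaP_C4-2B members. The part of this in the differences between the lines below was not tested. Against the other cells of that line, 709 of 11583 genes were higher (6.12%) and 954 lower (8.24%). Of 10544 genes measured in both lines, 149 were at least 2-fold higher than the median gene in LNCaP_C4-2B and 188 in LNCaP_FGC, and 116 were so in both, 77.9% and 61.7% of the lists. Both groups of members were chosen by the same 6 genes, so this overlap is a description. Over all 10544 genes the Spearman correlation of the ratios was 0.48. The ratio of members over other cells was at least 1.5-fold higher in LNCaP_C4-2B for 571 genes (5.42%) and at least 1.5-fold lower for 651 (6.17%), and with 1 library per line no test of this was possible.

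CDK1 was among the genes with a lower ratio in LNCaP_C4-2B. Its ratio was 1.57-fold in LNCaP_C4-2B (223 against 142 CPM) and 2.76-fold in LNCaP_FGC (1051 against 381 CPM), a log2 difference of -0.80 (95% interval -0.92 to -0.68, counting error only). KIF14 was 4.53-fold and 7.22-fold higher (difference -0.66, -0.93 to -0.38). The ratios of other well-known mitotic genes lay within 1.5-fold of each other in the lines, with AURKA at 5.33-fold and 6.42-fold, TOP2A at 3.38-fold and 4.29-fold, UBE2C at 3.79-fold and 5.07-fold and PTTG1 at 2.21-fold and 2.20-fold. List medians were lower in LNCaP_C4-2B for 7 of the 8 mitosis lists, as for the spindle checkpoint at 0.48 against 1.10. The anaphase-promoting complex stood at 0.08 against -0.01. Among those 7 lists, the ratio of summed levels was not lower for mitotic entry (2.51 against 2.49) and cytokinesis (2.23 against 2.13), and it was lower for the others.

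The androgen-regulated list had like medians in both lines, -0.42 and -0.45, but single genes did not. TMPRSS2 was 1.85-fold lower in LNCaP_C4-2B members (83.3 against 154 CPM) and 4.08-fold lower in LNCaP_FGC members (31.1 against 127 CPM), a log2 difference of 1.16 (0.83 to 1.49). KLK3 was 1.19-fold and 1.77-fold lower (difference 0.59, 0.51 to 0.67). MT1X was 2.32-fold lower in LNCaP_C4-2B members and stood at 254 against 263 CPM in LNCaP_FGC (difference -1.15, -1.34 to -0.95), a difference of pooled levels only, since the median LNCaP_C4-2B cell had near-equal MT1X in members and other cells (51.6 and 53.9 CPM). The 5 highest differences among genes with at least 50 CPM were GPR158 (1.35), GRB10 (1.25), MAGEA1 (1.23), CRIP2 (1.23) and MANEA (1.18), and the 5 lowest FAM111B (-1.33), SEMA3C (-1.33), MT1X, CHTF18 (-1.14) and NRP1 (-1.10). Several of these rest on low levels in 1 line, as MAGEA1 with 1.80 against 3.52 CPM in LNCaP_FGC (interval of the difference 0.04 to 2.43).

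**Figure D5:**
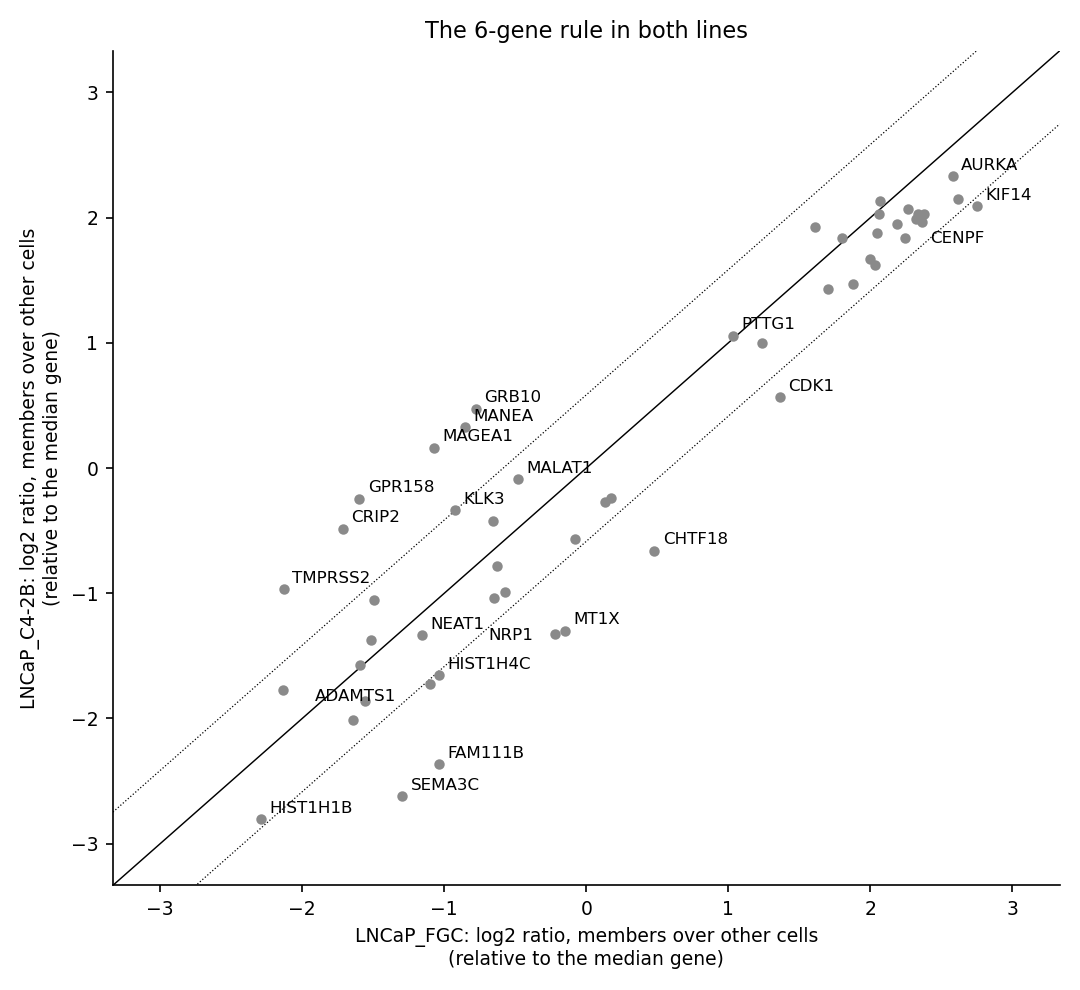
Each point is a named gene, placed by its log2 ratio of members over other cells relative to the median gene in LNCaP_FGC (horizontal axis) and LNCaP_C4-2B (vertical axis). The solid line marks equal ratios and the dotted lines a 1.5-fold difference, with CDK1 (difference -0.80) below the band and TMPRSS2 (1.16) above it.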

How the data were processed

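Single cells of both lines were profiled with 10x Genomics 3′ v3.1 chemistry, 1 library per line. GRCh38, Cell Ranger 6.0 and Seurat 5.011 are the build and tools in the submitters' processing notes. Cells were filtered by the authors on gene and read numbers, on hemoglobin, ribosomal and mitochondrial percent and on an SCDS doublet score, after which they took 1850 cells per line and thinned the UMI counts to a common mean of 19000 per cell. The deposited values are these counts, unscaled, with 36601 genes. Thinning removes differences in depth between libraries, not between cells. UMIs per cell ran from 9593 to 48630 in LNCaP_C4-2B and from 8988 to 51088 in LNCaP_FGC, and the libraries shared 0 cell barcodes. In pooled members 1 UMI equals 0.283 CPM, and in other cells 0.0316 CPM.

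The 185 members, leaving 1665 other cells, were taken by the 6-gene value, ties by barcode order. Genes needed at least 100 UMIs over the cells compared. Pooled CPM ratios have exact conditional 95% intervals, levels exact Poisson and shares exact Clopper-Pearson ones, all for counting error only. Phase was called with CellCycleScoring in Seurat 5.3.0 (R 4.3.3). Shares of cells with a UMI were taken after thinning each cell to 11901 UMIs, the library's percentile 10, which left 166 members and 1499 other cells. Ratios and intervals were computed in Python 3.11.15 with scipy 1.17.1, and the ratio step was tested on simulated data. edgeR 4.0.16 gave TMM factors for an alternative scaling only, with no count test. Positions are from GENCODE 44 by symbol, and promoters from the RefSeq table.

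Named genes were the 12 highest and 12 lowest ratios at 50 CPM or more in the higher group, up to 2 from either end of each list at 20 CPM or more, the 5 highest and 5 lowest of each further comparison, and a fixed set of cell cycle and prostate genes. Other genes named as list members, in the comparison of UMIs per cell, or on no list were chosen after their values were seen. The members, lists and rules were chosen with earlier results of these data known. Alternatives were the minimum count, scaling, thinning, the number of members, each of the 6 genes left out, and the cells compared with. Some genes are not reported here.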

Additional observations from a re-analysis of the deposited data

How the results depend on the processing

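With 1 library per line nothing here estimates variation between cultures, and low genes are limited by depth. The 557 higher and 703 lower genes became 267 and 208 with a minimum of 400 UMIs, 3428 and 6516 with no minimum, and 329 and 447 against only those other cells that were in G2M. With the interval also past the median gene, an alternative chosen after seeing the data, 498 and 464 were counted. The 5 lists with a median at least 1.5-fold higher became 8 with no minimum, 8 without cells above percentile 90 of UMIs and 0 against only other G2M cells. Replication-dependent histones and neuroendocrine markers were the 2 lists with a median at least 1.5-fold lower. These 2 became 1 with a minimum of 400 UMIs, with thinned cells, with 93 members and against only other G2M cells. Against those cells the log2 ratio turned to 0.10 for ALDOC, -0.064 for AURKB, -0.091 for H2AFX and -0.016 for RAD51AP1, and with CCNB1 out of the rule it was 0.0080 for FBXO5. For the other alternatives of named genes and lists, 1872 gene values and 491 list medians stayed within their counting interval. For lists, that is the median interval of their genes. Past it moved 331 gene values and 30 list medians. Of these, 101 gene values and 15 list medians moved against only other G2M cells, where 39 and 14 stayed within it.

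The members' median of 17483 UMIs became 19912 with CCNB1 out of the rule, which kept 142 of the members, and 19144 when the highest sums after thinning were taken. The G2M share became 100% with 93 members. Genes with a ratio higher in LNCaP_C4-2B than in LNCaP_FGC numbered 972 with 93 members, 313 with 370 and 889 with thinned cells, against 571, and those lower 1012 with 93 members and 358 with 370, against 651. Genes higher and lower with few UMIs numbered 110 and 167 after thinning and 90 and 196 with 62 cells a side, and those higher and lower than in the next-ranked cells 179 and 124 after thinning, all chosen after seeing the data. CDK1 with few against many UMIs stayed between -1.99 and -1.49 on the log2 scale in all alternatives run. The share of promoters with the CHR letters was 37.9% in the 250 bases before the start alone and 29.6% for genes at least 1.5-fold higher. No paired analysis was possible because each line has 1 library.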
